A study of Mus musculus with 2 samples.

Results

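Gzmk-expressing CD8 T cells, called Gzmk+ CD8 cells here, were 902 of the 22284 tumour leukocytes that passed the cell filters in this series, 558 of 11131 cells in the KO library and 344 of 11153 cells in the WT library. They were selected on raw counts of unique molecular identifiers (UMIs, 1 per captured RNA molecule). A cell needed at least 2 UMIs of Cd3d, Cd3e and Cd3g together, at least 1 UMI of Cd8a and Cd8b1 together, at least 1 UMI of Gzmk and 0 UMIs of Cd4 and Havcr2. It could hold at most 1 UMI of Mki67 and Top2a together, at most 1 UMI of Cd79a and at most 2 UMIs of Lyz2. The levels of these genes in the selected cells are therefore a description of the selection and not a finding.

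Gzmk encodes granzyme K, a serine protease stored in the granules of cytotoxic lymphocytes together with granzymes A and B and perforin, which opens the way for granzymes into a target cell. In mouse tumours, CD8 T cells that carry Gzmk have been described as an intermediate effector or memory-like population that shows fewer inhibitory receptors than terminally exhausted cells, for which Havcr2 (TIM-3) is a common marker. Interferon gamma, made by activated T and NK cells, acts on many genes, among them guanylate-binding proteins, immunity-related GTPases and the feedback inhibitor Socs1.

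Both libraries came from mice with tumours of the B16-F0 line, a melanoma that can be grafted into mice, and held tumour-infiltrating cells sorted as living CD45-positive leukocytes. The KO group was 1 library from a knockout genotype whose gene the labels do not name, and the WT group was 1 library from a wild-type genotype; strain, age and the number of animals behind each library are not given in the sources used here. The labels call the cells tumour-infiltrating regulatory T cells, whereas the stated sort takes all CD45-positive cells, so the label was set beside Foxp3, the defining factor of those cells. Of the Gzmk+ CD8 cells thinned to equal depth, 0 of 556 in KO and 0 of 342 in WT held a Foxp3 UMI. The exact 95% intervals of these shares reach up to 0.661% in KO and 1.07% in WT. They do not limit cells that express the gene at a low level. Without thinning, 0% of the cells in KO and 0.291% in WT held one. The selection asked for a CD8 UMI and 0 Cd4 UMIs, which leaves out CD4 regulatory T cells. These counts therefore cannot say whether the libraries held such cells, or whether the label or the stated sort is right. With 1 library per genotype there is no replicate and no test, so every interval below covers counting error alone and a difference compares 2 libraries, not 2 genotypes.

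The KO matrix held 112544655 UMIs and the WT matrix 98438084 UMIs. The Gzmk+ CD8 cells contributed 3623750 UMIs in KO and 2179655 UMIs in WT, with medians of 5456.5 UMIs per cell in KO and 5147 in WT. The libraries differed elsewhere, with 402 gated B cells in KO against 3348 in WT, so shares of all leukocytes move with the B cells. The 2 libraries shared 42 cell barcodes, which was the barcode of 2 Gzmk+ CD8 cells in KO and 1 in WT.

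The 4 markers given for these cells were all present. Ccl5, a chemokine that draws T cells and monocytes and the single marker of the 4 that the selection did not use, was detected in 99.6% of the cells in KO and 100% in WT, with a median of 94.5 UMIs per cell in KO and 115 in WT. Cd8b1 was detected in 92.1% of the cells in KO and 90.4% in WT, and Cd8a in 82.8% in KO and 80.8% in WT. Gzmk itself was sparse, with a median of 2 UMIs per cell in both libraries and a highest value of 12 UMIs in KO and 13 in WT. Gated B cells should lack granzyme K. Of them, 0.498% in KO and 0.119% in WT held a Gzmk UMI, at median depths of 3504 and 3349 UMIs. The B-cell gate allowed no UMI of Cd3d, Cd3e or Cd3g, and doublets were not removed. How much of this level free RNA or doublets gave was not tested.

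The edges of the selection were well filled. At the Gzmk limit, 249 cells in KO and 148 in WT held exactly 1 Gzmk UMI, while 1080 and 945 cells that met every other limit held none. At the Havcr2 limit, 54 cells in KO and 30 in WT were left out for 1 Havcr2 UMI, and at the proliferation limit 25 cells in KO and 20 in WT were left out for 2 UMIs of Mki67 and Top2a.

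Gzmk+ CD8 cells made up a similar part of the CD8 T cells in both libraries while the cells around them differed. They were 23.4% of 2383 gated CD8 T cells in KO (exact Clopper-Pearson 95% interval 21.7 to 25.2) and 21.5% of 1602 in WT (19.5 to 23.6). Naive-like CD8 cells, with no Gzmk or Havcr2 and at least 2 UMIs summed over naive-cell genes that include the homing receptor Ccr7 and the transcription factor Lef1, were 20.02% in KO (18.4 to 21.7) and 40.2% in WT (37.8 to 42.6). Cycling CD8 cells, with at least 2 UMIs of Mki67 and Top2a, were 24.0% in KO (22.3 to 25.8) and 13.5% in WT (11.9 to 15.3). Havcr2+ CD8 cells were 7.26% in KO (6.25 to 8.38) and 5.99% in WT (4.88 to 7.27). The intervals of the Gzmk+ and Havcr2+ shares overlap between KO and WT, and those of the naive-like and cycling shares do not. The CD8 denominator holds the naive-like cells, 477 in KO and 644 in WT, so each share moves with them. The similar Gzmk+ shares therefore hold for this denominator and not for CD8 cells other than naive-like ones. Of all filtered cells, Gzmk+ CD8 cells were 5.01% in KO (4.61 to 5.43) and 3.08% in WT (2.77 to 3.42), a share whose denominator holds the B cells.

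**Figure D1:**
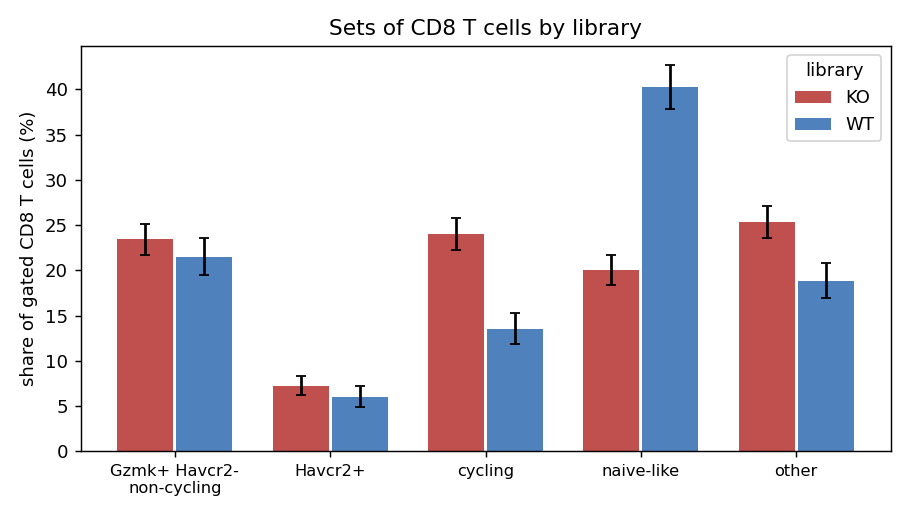
Share of gated CD8 T cells (percent, vertical axis) in 5 sets that do not overlap, KO (red) left of WT (blue), with exact 95% binomial intervals that cover counting error. The Gzmk+ bars stand at 23.4% in KO and 21.5% in WT, while the naive-like bars stand at 20.02% and 40.2%.

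RNA of cytotoxic genes was present in the Gzmk+ CD8 cells, though not in every cell. Nkg7, a granule membrane protein of killer cells, summed to 1933 CPM, which are UMIs scaled to a total of 1000000, in KO and 1814 CPM in WT. Gzma, granzyme A, summed to 1272 CPM in KO and 1449 CPM in WT, and Gzmb, granzyme B, to 544 CPM in KO and 427 CPM in WT. At equal depth of 2000 UMIs per cell, Gzma was detected in 33.6% of the cells in KO and 38.9% in WT (43.5% and 47.4% without thinning), and Gzmb in 41.0% in KO and 37.7% in WT (60.4% and 55.2% without thinning). Thinning left out 2 cells in each library. In B cells at the same depth, Gzma was detected in 3.53% in KO and 2.82% in WT, and Gzmb in 0.756% and 0.789%. Both granzymes were thus detected in a far larger share of the Gzmk+ CD8 cells than of the B cells. Among thinned cells, 21.8% in KO and 21.6% in WT held both granzymes, and 47.1% in KO and 45.0% in WT held neither. These shares hold at 2000 UMIs per cell. Without thinning, cells with no UMI of the whole granzyme and perforin list apart from Gzmk were 18.5% in KO and 20.9% in WT.

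Receptors of circulating and tissue effector cells and memory genes were also detected. Cxcr3, the receptor of interferon-induced chemokines, was at 138 CPM in KO and 164 CPM in WT. Il7r, the receptor of the survival cytokine IL-7, was at 249 CPM in KO and 232 CPM in WT, and Tcf7, the transcription factor of naive and stem-like T cells, at 98.5 CPM in KO and 117 CPM in WT. At equal depth Tcf7 was detected in 19.4% of the cells in KO and 18.1% in WT, against 1.01% and 0.577% of B cells. Itgae, the CD103 integrin chain of tissue-resident cells, was detected in 1.98% of the cells in KO and 1.17% in WT, against 0.756% and 0.152% of B cells. Of the thinned cells, 2.34% in KO and 1.46% in WT held both Tcf7 and Pdcd1, 13 and 5 cells.

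Set beside the other CD8 T cells of their own library, the Gzmk+ CD8 cells lay between the naive-like and the Havcr2+ cells for several genes. These contrasts are made by the same genes that chose the cells, so they are a description with no test. A gene is counted where the ratio of CPM was at least 1.5-fold with an exact binomial 95% interval off 1 in the same direction in both libraries, among genes with enough UMIs to measure. Against Havcr2+ CD8 cells, 479 of 10147 genes were higher (4.72%) and 499 lower (4.92%). Homing receptors and integrins were higher for 15 of 24 measured genes and lower for 1 (Cxcr6), and memory and stem-like genes were higher for 9 of 17 and lower for 0. Klf2, a factor that keeps the egress receptor S1pr1 expressed, was at 233 CPM in Gzmk+ against 49.2 CPM in Havcr2+ cells of KO, and 282 against 76.7 CPM in WT. Il7r was at 249 against 72.0 CPM in KO and 232 against 55.4 CPM in WT.

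Granzyme and perforin genes other than Gzmk were higher than in Havcr2+ cells for 2 of 9 measured genes, Gzma and Gzmm, and lower for 5: Prf1 and the tandem granzymes Gzmc, Gzmd, Gzme and Gzmf beside Gzmb. Gzmm, granzyme M, was at 42.5 CPM in Gzmk+ against 4.83 CPM in Havcr2+ cells of KO, and 47.3 against 9.38 CPM in WT. Gzmf was at 2.21 CPM in Gzmk+ against 932 CPM in Havcr2+ cells of KO, and at 0.459 against 369 CPM in WT. Gzmd was at 0.552 against 383 CPM in KO, and 0 against 104 CPM in WT. These neighbouring granzymes are close copies of each other, so the split of reads among Gzmc, Gzmd, Gzme and Gzmf is uncertain. Inhibitory receptors and exhaustion genes were lower for 11 of 19 and higher for 0: Lag3, an inhibitory receptor that binds MHC class II, was at 47.2 against 245 CPM in KO and 37.2 against 246 CPM in WT, and Tox, a transcription factor of exhausted cells, at 89.4 against 232 CPM in KO and 64.7 against 188 CPM in WT. Chemokines and cytokines were higher for 2 of 16 measured genes, Ccl5 and Il16, and lower for 9. Xcl1, a chemokine for cross-presenting dendritic cells, was at 52.2 against 589 CPM in KO and 61.0 against 556 CPM in WT. Glycolysis enzymes were lower for 9 of 18 and higher for 0. Genes of the type I interferon response went the other way, higher for 11 of 19 and lower for 0, with Ifit3, an RNA-binding antiviral protein, at 105 against 14.5 CPM in KO and 69.7 against 7.67 CPM in WT. Havcr2+ cells were deeper, with medians of 11651 UMIs in KO and 10336 in WT, and 51.4% of them in KO and 49.0% in WT also held a Gzmk UMI.

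Against naive-like CD8 cells, 818 of 10793 genes were higher (7.58%) and 263 lower (2.44%). Effector differentiation genes were higher for 16 of 22 and lower for 0, and inhibitory receptors and exhaustion genes were higher for 12 of 17 and lower for 0. Klrg1, an inhibitory receptor of short-lived effector cells, was at 48.6 CPM in Gzmk+ against 4.12 CPM in naive-like cells of KO, and 74.8 against 0.736 CPM in WT. Cx3cr1, the fractalkine receptor of circulating effector cells, was at 58.2 against 5.67 CPM in KO and 69.7 against 5.52 CPM in WT. Memory and stem-like genes were lower for 9 of 16 and higher for 2 (Eomes and Ly6a). Satb1, a chromatin organiser of naive T cells, was at 65.1 against 371 CPM in KO and 63.8 against 368 CPM in WT. Pdcd1, the PD-1 receptor, was at 99.1 against 20.6 CPM in KO and 52.3 against 12.3 CPM in WT. The naive-like selection used Ccr7 and Lef1, so their difference is built in.

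Against cycling CD8 cells, 1156 of 11633 genes were higher (9.94%) and 1767 lower (15.2%). The 20 measured proliferation genes were all lower, which the limit on Mki67 and Top2a favours. Eomes, a T-box factor of memory and exhausted CD8 cells, was at 98.5 CPM in Gzmk+ against 52.5 CPM in cycling cells of KO, and 129 against 74.4 CPM in WT. Cycling cells had the deepest profiles, with medians of 21582.5 UMIs in KO and 18078 in WT. Their gate set no limit on Gzmk or Havcr2, and 53.5% of them in KO and 55.3% in WT also held a Gzmk UMI.

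**Figure D2:**
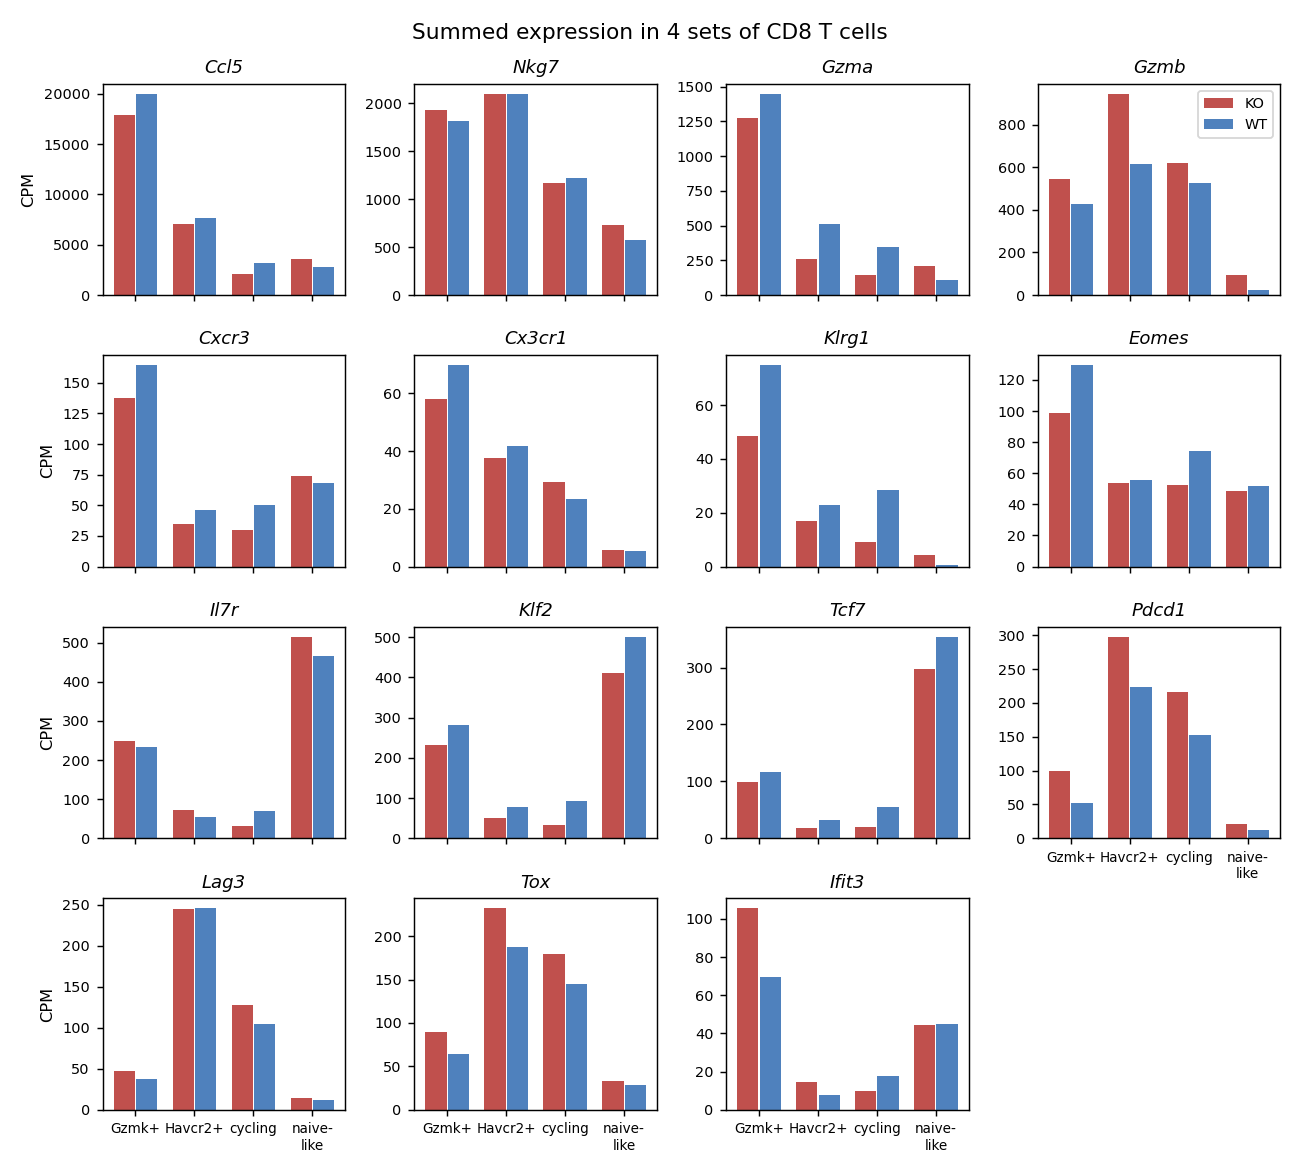
Summed level of 15 genes (CPM, vertical axes starting at 0 and scaled per gene) in Gzmk+, Havcr2+, cycling and naive-like CD8 cells, KO (red) left of WT (blue). Gzma and Ccl5 are highest in the Gzmk+ cells of both libraries, Lag3 and Tox in the Havcr2+ cells, and Tcf7 and Il7r in the naive-like cells.

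The cells varied among themselves with their Gzmk count. In KO 44.6% of them held 1 Gzmk UMI, 39.8% held 2 or 3 and 15.6% held 4 or more, and in WT 43.0%, 39.8% and 17.2%. Gzma was at 882, 1296 and 2110 CPM over the 3 classes in KO and at 1221, 1394 and 2033 CPM in WT, a higher level at each step in both libraries. Gzmb was at 423, 572 and 757 CPM in KO, while in WT it was at 427, 426 and 427 CPM. Il7r was at 306, 240 and 143 CPM in KO and at 239, 234 and 215 CPM in WT. Ccl5 was at 16626, 18111 and 20465 CPM in KO and at 17699, 22436 and 20262 CPM in WT. The classes also differed in depth, with median UMIs of 5107, 5733 and 6132 per cell in KO and 4799, 4994 and 6190 in WT, and the part of depth in these steps was not tested.

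**Figure D3:**
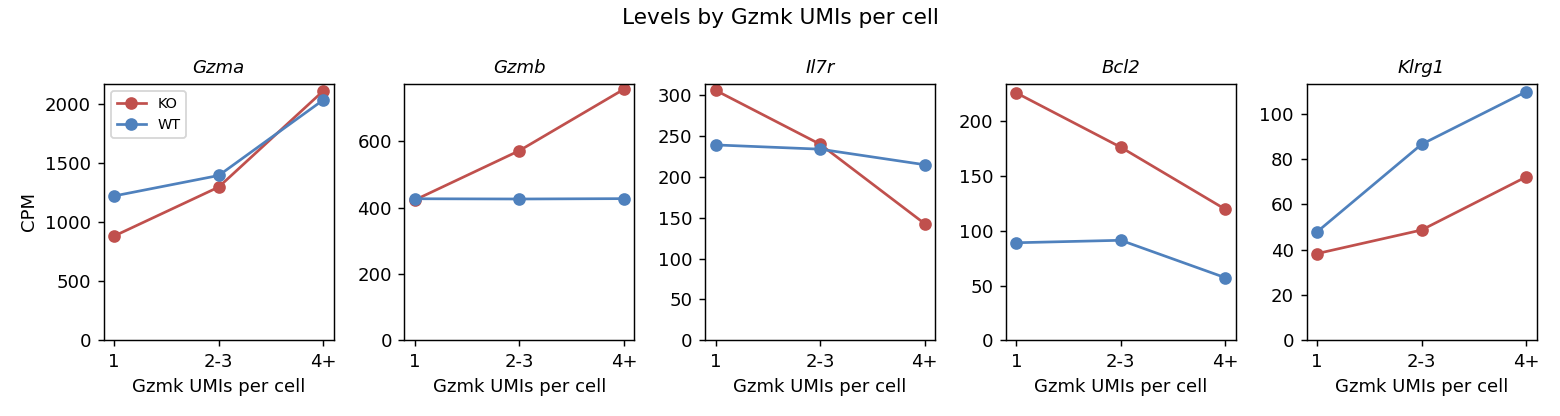
Level (CPM, vertical axes starting at 0) of 5 genes in Gzmk+ CD8 cells with 1, 2 or 3, and 4 or more Gzmk UMIs, for KO (red) and WT (blue). Gzma is higher at each step in both libraries, Gzmb in KO alone, and the Bcl2 line of KO stays above that of WT.

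The cells with a Pdcd1 UMI differed from those without. They were 147 cells (26.3%) in KO and 53 cells (15.4%) in WT, and they were deeper, with medians of 7029 against 5165 UMIs in KO and 8025 against 4898 UMIs in WT. Tox was at 173 CPM in cells with Pdcd1 against 45.5 CPM in cells without it in KO, and at 104 against 52.7 CPM in WT. Lag3 was at 96.7 against 21.1 CPM in KO and at 97.8 against 18.6 CPM in WT. Gzma ran the other way, at 324 against 1772 CPM in KO and 603 against 1709 CPM in WT. Klrg1 was likewise lower with Pdcd1, at 17.6 against 64.9 CPM in KO and 31.3 against 88.1 CPM in WT. In both libraries Tox and Lag3 were thus higher in the cells with Pdcd1, and Gzma and Klrg1 in the cells without it.

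The split by Tcf7 separated the granzymes as well. Gzma was at 860 CPM in cells with a Tcf7 UMI against 1540 CPM without in KO, and 683 against 1952 CPM in WT. Gzmb was at 314 against 694 CPM in KO and 211 against 568 CPM in WT. Slamf6, a surface receptor of stem-like CD8 cells, was at 77.0 against 39.6 CPM in KO and 98.4 against 39.5 CPM in WT.

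Between the 2 libraries, the differences within the Gzmk+ CD8 cells ran both ways. Among them were a higher level of interferon gamma response genes, Bcl2 and Pdcd1 in KO, and a lower level of Ctse and Ret. Of 9310 genes with at least 20 UMIs over both libraries, 249 were at least 1.5-fold higher in KO with a counting interval off 1 (2.67%) and 308 were lower (3.31%). The median log2 ratio of KO over WT over all measured genes was 0.00, so ratios need no recentring. Gzmk was at 337 CPM in KO and 365 CPM in WT.

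Genes of the interferon gamma response were higher in KO for 10 of 22 measured genes and lower for 0, against the background of 2.67% higher and 3.31% lower. Their median log2 ratio was 0.57, all 22 lay above 0, and the list summed to 2039 CPM in KO and 1354 CPM in WT, a log2 ratio of 0.59 (95% counting interval 0.53 to 0.65). Serpina3g, a serine protease inhibitor of activated T cells, was at 159 CPM in KO (575 UMIs) and 82.6 CPM in WT (180 UMIs), a log2 ratio of 0.94 (0.70 to 1.19). It was detected in 23.4% of thinned cells in KO (19.9 to 27.1) and 12.9% in WT (9.51 to 16.9), against 11.3% and 7.59% of B cells. Whether B cells make Serpina3g themselves was not tested. Gbp4, a guanylate-binding protein, was at 126 CPM in KO and 64.2 CPM in WT, a log2 ratio of 0.97 (0.70 to 1.26). Igtp, an immunity-related GTPase, was at 126 CPM in KO and 68.4 CPM in WT, a log2 ratio of 0.89 (0.62 to 1.16). Socs1, which restrains JAK kinases, was at 88.3 CPM in KO and 49.1 CPM in WT, a log2 ratio of 0.85 (0.53 to 1.18).

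The remaining genes higher in KO from that list were Gbp2, Gbp6, Gbp9, Serpina3f and the pair Tgtp1 and Tgtp2. Tgtp1 and Tgtp2 are near-identical copies, and reads of neighbouring guanylate-binding proteins may be shared, so the values of single members are uncertain. The list's other genes did not pass the rule. Irf1, a factor induced early by interferon, was at 167 CPM in KO and 153 CPM in WT (0.13, -0.07 to 0.32). Ifng, interferon gamma itself, was at 148 CPM in KO and 117 CPM in WT (0.35, 0.13 to 0.57), short of 1.5-fold, and was detected in 22.5% of thinned cells in KO and 17.5% in WT. Ifngr1, a receptor chain, was at 669 CPM in KO and 517 CPM in WT (0.37, 0.27 to 0.48).

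The difference was spread over the cells. Per cell, the list's UMIs per 10000 had a median of 15.8 in KO and 9.95 in WT, with quartiles of 9.46 and 27.9 in KO and 5.56 and 17.7 in WT. The 5% of cells with most of these UMIs held 18.6% of them in KO and 22.03% in WT. Cells with no UMI of the list were 4 of 558 in KO and 15 of 344 in WT. The summed log2 ratio was 0.46 (0.36 to 0.55) in cells with 1 Gzmk UMI, 0.67 (0.57 to 0.77) with 2 or 3, and 0.70 (0.56 to 0.85) with 4 or more. It was 0.65 (0.55 to 0.75) in cells with Tcf7 and 0.55 (0.47 to 0.63) without, and 0.69 (0.56 to 0.81) in cells with Pdcd1 and 0.56 (0.49 to 0.64) without. The ratio thus lay above 0 in every one of these classes.

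The same list lay above 0 in the other gated cells too. The summed log2 ratio of KO over WT was 0.23 (0.13 to 0.33) in Havcr2+ CD8 cells, 0.45 (0.40 to 0.50) in naive-like CD8 cells, 0.32 (0.27 to 0.37) in cycling CD8 cells, 0.37 (0.31 to 0.44) in other CD8 cells, 0.40 (0.36 to 0.44) in CD4 T cells and 0.34 (0.29 to 0.38) in NK cells. It was 1.22 (1.14 to 1.30) in B cells and 1.15 (1.13 to 1.17) in myeloid cells. The Gzmk+ CD8 interval of 0.53 to 0.65 lay above those of these T and NK sets and below those of B and myeloid cells. Whether the difference between the libraries varies between these sets could not be tested with 1 library per genotype.

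Promoters are shown for 4 higher genes of the list with a single RefSeq start, because these genes moved together. Tgtp1 and Tgtp2, near-identical copies of each other, were left out. Stretches of the Igtp window recur in that of Irgm2, and stretches of the Serpina3g window in those of Serpina3f, both list genes. Each runs from 250 bases before to 50 bases after the start (RefSeq, GRCm38.p6), written 5′ to 3′ on the gene's strand. Capitals mark matches on either strand to TTCNNNGAA, the core of the interferon gamma-activated site, or to GAAANNGAAA, an interferon-stimulated response element core. The 2 motifs do not overlap each other in these windows.
Igtp: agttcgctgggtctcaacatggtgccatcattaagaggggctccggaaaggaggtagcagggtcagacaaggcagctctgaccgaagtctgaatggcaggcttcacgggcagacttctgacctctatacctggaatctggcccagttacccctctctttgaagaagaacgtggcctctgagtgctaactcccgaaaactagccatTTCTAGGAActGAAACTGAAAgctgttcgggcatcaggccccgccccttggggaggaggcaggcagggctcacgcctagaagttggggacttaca
Socs1: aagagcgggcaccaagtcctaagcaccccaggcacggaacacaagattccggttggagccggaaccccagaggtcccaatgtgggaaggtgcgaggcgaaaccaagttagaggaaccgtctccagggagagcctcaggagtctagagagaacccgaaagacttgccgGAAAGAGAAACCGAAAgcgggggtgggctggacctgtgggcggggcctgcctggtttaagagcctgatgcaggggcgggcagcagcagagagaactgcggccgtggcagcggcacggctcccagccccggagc
Gbp2: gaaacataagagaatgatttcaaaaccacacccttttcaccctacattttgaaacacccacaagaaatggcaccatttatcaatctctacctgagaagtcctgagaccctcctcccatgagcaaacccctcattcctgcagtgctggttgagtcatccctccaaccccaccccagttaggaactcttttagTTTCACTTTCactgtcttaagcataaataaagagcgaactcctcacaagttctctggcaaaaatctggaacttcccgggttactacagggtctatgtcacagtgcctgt
Serpina3g: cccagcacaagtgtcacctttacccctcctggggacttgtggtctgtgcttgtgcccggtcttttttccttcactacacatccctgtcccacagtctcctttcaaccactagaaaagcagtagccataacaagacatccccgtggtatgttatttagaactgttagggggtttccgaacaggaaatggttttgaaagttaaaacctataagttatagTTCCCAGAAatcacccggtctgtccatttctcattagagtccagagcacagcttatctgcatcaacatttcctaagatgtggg
The Igtp window is chr11:58199306-58199605 on the plus strand. The Socs1 window is chr16:10785487-10785786 on the minus strand. The Gbp2 window is chr3:142620413-142620712 on the plus strand. The Serpina3g window is chr12:104235897-104236196 on the plus strand. The Igtp window held 1 match to each motif. The Socs1 window held 2 matches to GAAANNGAAA that overlap, the Gbp2 window held 1, found on the opposite strand, and the Serpina3g window held 1 match to TTCNNNGAA. Of all 32851 promoter windows of 300 bases in the table, 8.30% held TTCNNNGAA and 3.44% held GAAANNGAAA. A promoter was found for 15 of the 22 list genes, under 80%, so no share over the list is read. A match is a description of the letters and not a binding site.

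Type I interferon response genes were higher in KO for 6 of 19 and lower for 0, with a median log2 ratio of 0.43. Ifit3 was at 105 CPM in KO and 69.7 CPM in WT (0.60, 0.32 to 0.88). It was detected in 14.2% of thinned cells in KO (11.4 to 17.4) and 8.19% in WT (5.51 to 11.6), and these intervals overlap. Isg15, a ubiquitin-like modifier, was at 105 CPM in KO and 103 CPM in WT (0.04, -0.21 to 0.28), and Bst2, the antiviral tetherin, at 227 CPM in KO and 236 CPM in WT (-0.05, -0.21 to 0.11). The list summed to a log2 ratio of 0.25 (0.17 to 0.33). It rested on fewer cells than the interferon gamma list, since the 5% of cells with most of its UMIs held 31.3% of them in KO and 40.1% in WT. Leaving out 42 cells with MHC class II RNA, described below, left 2 of 17 measured genes higher, with a median log2 ratio of 0.36. Ifit3 stood at 0.52 and Rtp4 at 0.57 in that setting, against 0.60 and 0.65 with those cells, values on either side of the 1.5-fold line at 0.58. Ifi208 of the interferon-inducible PYHIN family was lower in KO, at 41.9 CPM against 82.6 CPM in WT (-0.98, -1.30 to -0.66), while 11 of the family's 12 measured genes did not pass the rule.

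Bcl2, the anti-apoptotic protein that supports memory T-cell survival, had one of the firmest single differences. It summed to 676 UMIs over 278 cells in KO, 187 CPM, against 182 UMIs over 91 cells in WT, 83.5 CPM, a log2 ratio of 1.16 (0.92 to 1.40). No cell held more than 3.0% of its UMIs in KO or 4.4% in WT. The ratio was 1.34 in cells with 1 Gzmk UMI, 0.95 with 2 or 3 and 1.07 with 4 or more, and 1.13 in cells with Tcf7 and 1.19 without. In other sets Bcl2 did not pass the rule: the log2 ratio was -0.06 in Havcr2+, -0.18 in cycling, 0.28 in naive-like and 0.47 in other CD8 cells, and -0.16 in CD4 T cells. In NK cells it was 0.45 and in B cells -0.41. Bcl2 lies on chromosome 1 at 106538178 to 106714274 on the minus strand (GRCm38). The interval in Gzmk+ cells lies above the ratio in each of these sets, and the difference between sets was not tested. Among the other memory genes, Tcf7, Il7r (0.10, -0.05 to 0.26) and Slamf6 (-0.21, -0.53 to 0.12) did not pass the rule, Ly6a, the Sca-1 surface protein that interferons induce, was higher at 497 CPM in KO and 308 CPM in WT (0.69, 0.56 to 0.82), and Id3, an inhibitor of E proteins, was lower on few UMIs, 11 in KO and 39 in WT. Over the memory list 2 of 17 were higher, Bcl2 and Ly6a, and 2 lower, Id3 and Dapl1, with a median log2 ratio of -0.21.

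Pdcd1 was higher in KO, at 99.1 CPM (359 UMIs) against 52.3 CPM (114 UMIs) in WT, a log2 ratio of 0.92 (0.61 to 1.24). At equal depth 13.8% of the cells in KO (11.1 to 17.0) and 7.31% in WT (4.79 to 10.6) held a Pdcd1 UMI, against 0% and 0.182% of B cells. The level within the cells that held Pdcd1 was 287 CPM in KO and 223 CPM in WT, a smaller ratio than that of the shares. Those cells were chosen for holding a Pdcd1 UMI. The 2 ratios therefore cannot tell more cells with Pdcd1 from more Pdcd1 per cell. Pdcd1 lies on chromosome 1 at 94038305 to 94052553 on the minus strand. It was also higher in KO CD4 T cells (1.08) and naive-like CD8 cells (0.74), and at 0.41 in Havcr2+ and 0.50 in cycling CD8 cells it did not pass the rule. Of 17 measured inhibitory receptor and exhaustion genes, Pdcd1 and Rgs16, a regulator of G-protein signalling, were higher and 0 were lower. Lag3 was at 47.2 CPM in KO and 37.2 CPM in WT (0.34, -0.04 to 0.74), Tox at 89.4 CPM in KO and 64.7 CPM in WT (0.47, 0.18 to 0.76) and Cd160 at 78.6 CPM in KO and 66.5 CPM in WT (0.24, -0.05 to 0.54). The list summed to 827 CPM in KO and 751 CPM in WT, a log2 ratio of 0.14 (0.05 to 0.23). Tnfrsf9, the costimulatory receptor 4-1BB, was the 1 of 12 costimulatory receptors that passed, at 33.1 CPM in KO and 16.5 CPM in WT (1.00, 0.46 to 1.58).

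Some proliferation genes were higher in KO, although cells with 2 or more Mki67 and Top2a UMIs had been left out, and fewer passed with the cells thinned. Of 17 measured proliferation genes 5 were higher and 0 lower: Mcm2, Mcm3, Mcm6 and Mcm7, subunits of the helicase loaded at replication origins, and Dut, which clears dUTP. Mcm6 was at 67.1 CPM in KO and 34.9 CPM in WT (0.94, 0.57 to 1.33). Of the same helicase, Mcm4 (0.36, -0.04 to 0.78) and Mcm5 (0.09, -0.45 to 0.64) did not pass. The summed list was close, at 2414 CPM in KO and 2278 CPM in WT (0.08, 0.03 to 0.13), and its median per cell was 19.2 UMIs per 10000 in KO and 20.6 in WT. With the cells thinned to 2000 UMIs, 1 of 16 measured genes was higher, and with the selection made on thinned counts 0 of 14 were higher or lower. The median log2 ratio over the list was 0.50 as reported, 0.11 with thinned cells and 0.09 with the selection on thinned counts, where Mcm2 stood at -0.10 and Mcm3 at -0.055. Serpins, inhibitors that protect killer cells from their own granzymes among other roles, were higher for 3 of 6, Serpina3f, Serpina3g and Serpinb9; the first 2 are in the interferon gamma list as well. Serpinb9, the granzyme B inhibitor, was at 83.6 CPM in KO and 53.7 CPM in WT (0.64, 0.33 to 0.96).

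**Figure D4:**
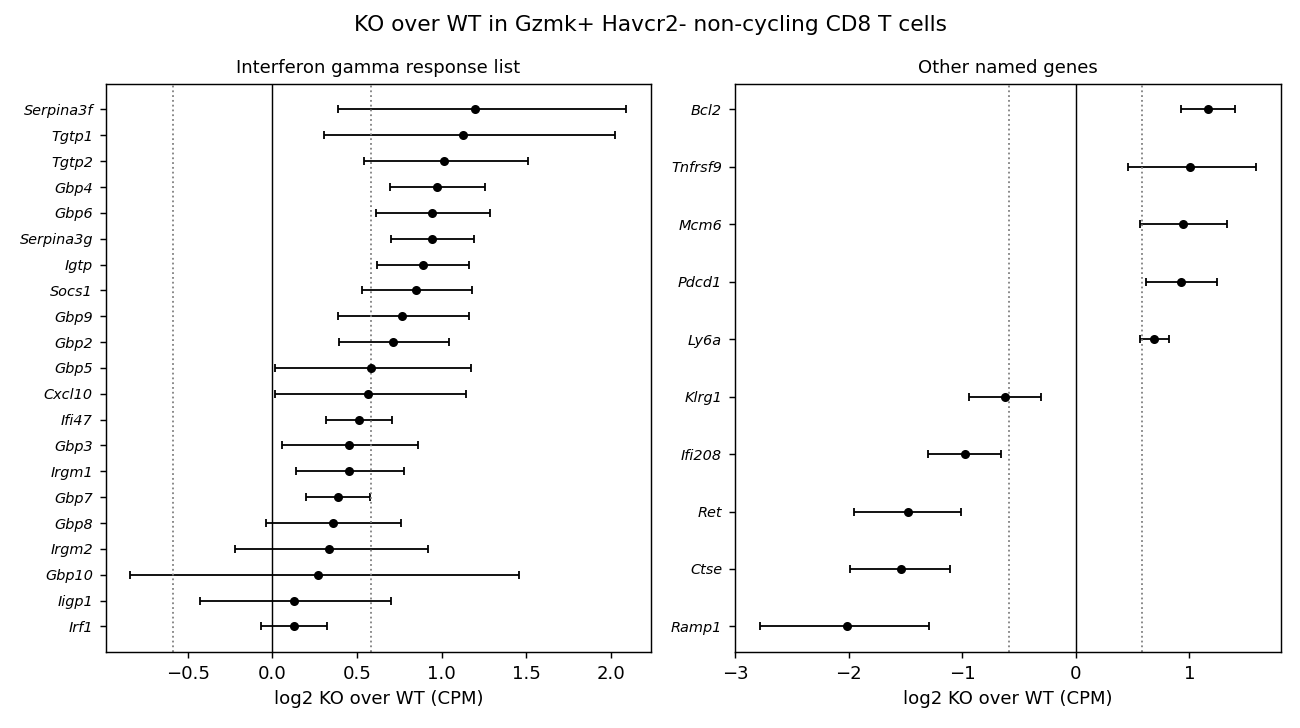
Log2 ratio of KO over WT in Gzmk+ CD8 cells (points, horizontal axes) with exact binomial 95% intervals for genes of the interferon gamma response list (left) and other named genes (right); dotted lines mark 1.5-fold. The plotted points of the list lie right of 0, Bcl2 stands at 1.16 and Ctse at -1.54.

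Cytotoxic genes lay on both sides of 0 between the libraries. Of 5 measured granzyme and perforin genes 0 were higher and 1 was lower, Gzmc, with 8 UMIs in KO and 34 in WT. Without Gzmk the list summed to 2026 CPM in KO and 2050 CPM in WT, a log2 ratio of -0.02 (-0.07 to 0.04). Within it Gzma had a log2 ratio of -0.19 (-0.25 to -0.12), Gzmb 0.35 (0.24 to 0.47) and Prf1, perforin, 0.54 (0.32 to 0.76), at 161 CPM in KO and 111 CPM in WT. The counting interval of Gzma lies below 0 and apart from those of Gzmb and Prf1, and none of the 3 reached 1.5-fold. These intervals take each UMI as a separate draw and leave out the spread between cells. The share of thinned cells with Gzma was 33.6% in KO (29.7 to 37.7) and 38.9% in WT (33.7 to 44.3), and those intervals overlap. Gzma made up most of the summed list. Without the limit on Havcr2, 4 of the 9 genes measured there were higher and 1 lower, with a median log2 ratio of 0.38, and with the selection on thinned counts 2 of 6 were higher and 0 lower, with a median of 0.29. The median over the 5 genes measured first was -0.15, and -0.24 and 0.19 in those settings. In naive-like CD8 cells Gzmb was higher in KO (1.99) and in Havcr2+ CD8 cells too (0.62). Chemokines and cytokines passed the rule for 0 of 14 genes. Ccl5 was at 17923 CPM in KO and 19999 CPM in WT (-0.16, -0.18 to -0.14) and Ccl4, a chemokine that draws T cells and monocytes, at 462 CPM in KO and 383 CPM in WT (0.27, 0.15 to 0.39). The T-cell receptor complex and signalling list passed for 0 of 18, MHC class I presentation for 0 of 17, glycolysis for 0 of 18 and the unfolded protein response for 0 of 14. Lipid synthesis genes were higher for 1 of 19 (Acaca) and lower for 2 (Hmgcs1 and Insig1), with a median log2 ratio of -0.24. Granule and death-ligand genes were lower for 1 of 13 (Stx11), antigen-receptor early response genes higher for 1 of 16, AP-1 and heat shock genes higher for 2 of 17, cytokine receptors higher for 1 and lower for 2 of 22, and naive CD8 markers higher for 1 and lower for 3 of 9.

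Klrg1 was lower in KO, at 48.6 CPM in KO and 74.8 CPM in WT (-0.62, -0.94 to -0.31). It was detected in 10.8% of thinned cells in KO (8.34 to 13.7) and 14.3% in WT (10.8 to 18.5), and these intervals overlap. Klrg1 was the 1 of 22 effector differentiation genes that passed. Of 23 measured homing receptors and integrins 1 was higher (Ccr7) and 2 were lower, among them Ccr9. A single cell held 25% of the Ccr7 UMIs in KO and 42% in WT. Among NK-cell receptors, Klra9, Klra3, Klra8 and Klrb1c were higher and Klra1 lower of 18 measured; the Klra genes, which encode Ly49 receptors, are close copies of each other, so their values are uncertain. Klra9 had 120 UMIs in 39 cells of KO and 27 UMIs in 11 cells of WT.

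Ctse and Ret were lower in KO, with UMIs in a minority of the cells of each library and no more than 4.84% of them in 1 cell. Ctse, the endosomal protease cathepsin E, was at 19.0 CPM in KO (62 cells with a UMI) and 55.5 CPM in WT (97 cells), a log2 ratio of -1.54 (-1.99 to -1.11), and was detected in 4.68% of thinned cells in KO (3.08 to 6.78) and 11.4% in WT (8.24 to 15.3). B cells at that depth gave 7.81% in KO and 20.2% in WT, above the Gzmk+ cells. Whether B cells make Ctse themselves was not tested, so they set no free-RNA level for it. The Gzmk+ shares are thus not told apart from free RNA, whose part in the value was not tested. Ctse was lower in KO in each of the 9 sets, with log2 ratios from -1.96 in cycling CD8 cells to -1.05 in myeloid cells. Ctse lies on chromosome 1 at 131638306 to 131675505 on the plus strand. Ret, a receptor tyrosine kinase, was at 17.1 CPM in KO and 47.7 CPM in WT (-1.48, -1.96 to -1.01), in 45 cells of KO and 56 of WT, and Ramp1, a co-receptor for calcitonin gene-related peptide, at 6.35 CPM in KO and 25.7 CPM in WT (-2.02, -2.79 to -1.29), in 21 and 26 cells. In naive-like CD8 cells Ret was at 2.58 CPM in both libraries. Ccr3, a chemokine receptor best known from eosinophils, was at 7.45 CPM in KO and 24.8 CPM in WT (-1.73, -2.46 to -1.04), in 19 cells of KO and 35 of WT.

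Tpm3-rs7 was higher in KO, at 21.8 CPM (79 UMIs in 62 cells) against 6.42 CPM in WT (14 UMIs in 13 cells), a log2 ratio of 1.76 (0.93 to 2.70). Its name marks a related sequence of the tropomyosin gene Tpm3, so reads of both loci may be shared and its value is uncertain. It passed the rule in each of the 9 sets, with log2 ratios from 1.28 in Havcr2+ CD8 cells, at 22.8 CPM in KO and 9.38 CPM in WT, to 2.27 in B cells, at 10.5 CPM in KO and 2.18 CPM in WT.

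**Figure D5:**
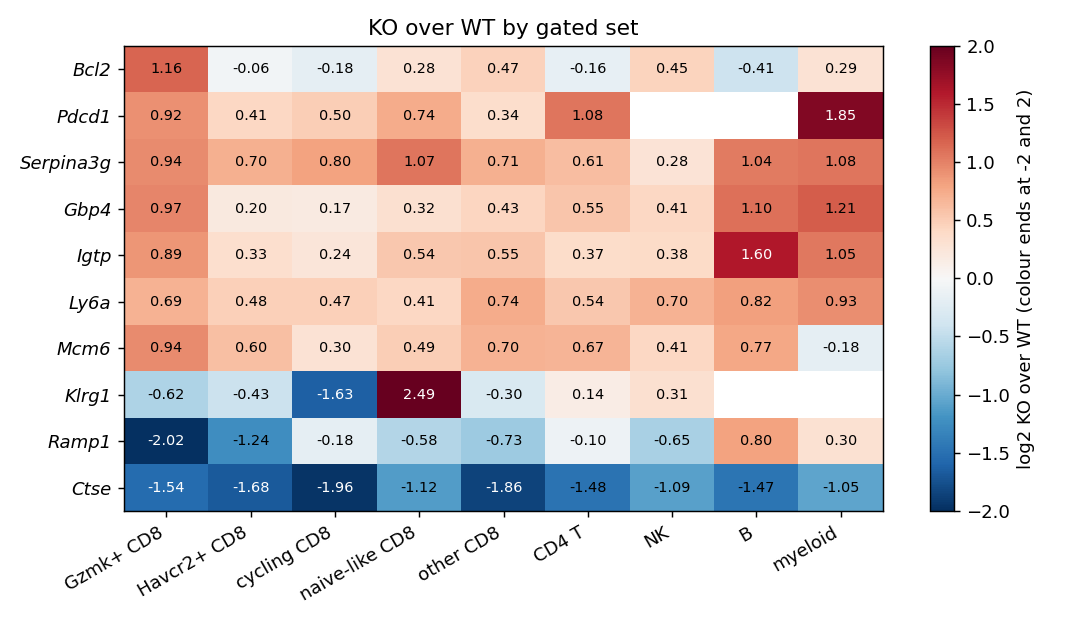
Log2 ratio of KO over WT (colour and printed value) for 10 genes (rows) in 9 gated sets (columns), with a cell left blank where a gene had under 20 UMIs over both libraries. Ctse is below 0 in every set, Serpina3g above 0 in every set, and Bcl2 is furthest above 0 in the Gzmk+ CD8 cells.

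RNA of other cell types was present in a few Gzmk+ CD8 cells and moved with part of the differences. Cells with at least 3 UMIs of the MHC class II genes H2-Aa, H2-Ab1 and H2-Eb1 were 23 of 558 in KO (4.12%) and 19 of 344 in WT (5.52%), and they held 86.7% of these UMIs in KO and 92.0% in WT. The B-cell list was higher for 1 of 8 measured genes and lower for 5, summing to 1501 CPM in KO and 1537 CPM in WT, but 1 cell held 88% of the Igkc UMIs in KO. The macrophage list was lower for 4 of 11 and summed to 1914 CPM in KO and 1919 CPM in WT. The NK list was higher for 3 of 10 and summed to 1972 CPM in KO and 2193 CPM in WT, though Gzma and Prf1 in it are also CD8 genes. The gamma-delta list was higher for 2 of 4, Trdc and Tcrg-C2, and summed to 64.0 CPM in KO and 28.9 CPM in WT; 19 cells in KO and 3 in WT held a Trdc UMI. The dendritic-cell list was higher for 3 of 7 and lower for 3, the neutrophil list higher for 1 of 2, and the CD4 and regulatory T-cell list passed for 0 of 5. Haemoglobin and melanoma genes had too few UMIs to measure.

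Several of the largest ratios rested on few cells. Ifitm1 had 384 UMIs in 16 cells of KO and 60 UMIs in 11 cells of WT (1.94), with 1 cell holding 55% of them in KO and 47% in WT. Hspb1 had 3 UMIs in KO and 107 in WT, 98% of them in 1 cell. Il1b had 132 UMIs in KO, 71% in 1 cell, and 29 UMIs in WT, 66% in 1 cell. Siglech, Ctsl, H2-DMb1, Rnase6, Ly86, Alox5ap, Ccnd1, Mef2c and Ly6d were lower in KO, with 1 cell holding between 16% and 82% of a gene's UMIs in each library. Without that cell in each library Ly6d no longer passed (-0.29), while the other 8 did, from -4.16 for Siglech to -1.75 for Alox5ap. With the 42 MHC class II cells left out, H2-DMb1 and Alox5ap, both at -0.94, and Ly6d, at -1.57, did not pass. Over all genes in that setting, an alternative chosen after seeing the data, 189 genes were lower in KO, against 308 with those cells. In that setting the ratio was 1.11 for Bcl2, 0.92 for Pdcd1, 0.93 for Serpina3g and 1.05 for Gbp4, 12 of 22 interferon gamma genes were higher, and Ifitm1 turned to -0.86.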

How the data were processed

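Single-cell RNA was measured in 2 libraries, 1 KO and 1 WT, by 10x Genomics droplet chemistry that tags polyadenylated RNA near its 3' end (version 3.1 per the labels). The authors deposited raw, whole-number UMI counts for each gene and barcode. Per the submitters' processing notes the tools were Cell Ranger and STAR with mm10, and per the file headers the matrices came from Cell Ranger 5.0.0. Which gene annotation the counting used is not stated. Reads near the 3' end do not report on a deletion elsewhere in a gene, and the labels name no knocked-out gene, so the genotype labels could not be checked.

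Barcodes with at least 1000 UMIs, 500 genes and a mitochondrial share of at most 10% were kept. The counts were read with scipy 1.17.1, numpy 2.4.6 and pandas 2.3.3 in Python 3.11.15. UMIs were summed over the selected cells of each library and scaled to CPM, and ratios were given with exact conditional binomial 95% intervals. A gene was measured with at least 20 UMIs over both libraries, and called with at least 1.5-fold and an interval off 1. Against the other CD8 sets the call had to hold in both libraries, and a library at 0 was set to a floor of 3 UMIs. Detection shares used cells thinned to 2000 UMIs, with Clopper-Pearson intervals, beside gated B cells as background. That background holds only for genes that B cells do not make themselves. UMIs count molecules, and intervals and floors cover counting error and not the spread between animals. The intervals of ratios take each UMI as a separate draw, so they leave out the spread between cells as well. The ratio and its call were checked on simulated counts.

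Genes named for KO over WT had at least 50 UMIs and 20 CPM in the higher library, leaving out the genes of the selection, T-cell receptor segments, immunoglobulins, haemoglobins, clone names, Xist, Y-linked genes, and mitochondrial and ribosomal protein genes, and 15 genes in each direction were named, by how far from 0 the nearer end of their interval lay. Against each other CD8 set the first 10 each way were ranked likewise. From each of 32 gene lists, up to 4 by level and 4 by bound could be named, not all are printed, and further genes of the lists are given beside them. Some genes that were measured are not reported here. The cells, lists and tests were chosen with earlier results of these data known. Doublets were not removed: Scrublet in scanpy 1.11.5 called 1 cell in KO, so the caller had not worked there, and removing the 1015 highest scores in KO and 1020 in WT was an alternative. The other alternatives were a higher Gzmk limit, no Havcr2 limit, thinning, a stricter mitochondrial limit, other scalings and other UMI minimums per gene. Positions come from a GENCODE annotation of GRCm38, which placed 32235 of 32285 features by identifier.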

Additional observations from a re-analysis of the deposited data

Results flagged for a closer look

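Among named genes with at least 50 UMIs in both sets and no cell holding 25% of a gene's UMIs, 4 passed the 1.5-fold rule in opposite directions in Gzmk+ CD8 cells and another gated T or NK set, and the difference between the sets was not tested. Ifit3 had a log2 ratio of KO over WT of 0.60 in Gzmk+ CD8 cells and -0.83 in cycling CD8 cells, where it was at 10.0 CPM in KO and 17.9 CPM in WT. Stx11, a syntaxin of granule release, stood at -0.59 in Gzmk+ CD8 cells and 0.90 in naive-like CD8 cells, and without the 1 cell with most of its UMIs in each library the Gzmk+ value was -0.49 and no longer passed. H2-Aa, an MHC class II chain of antigen-presenting cells, stood at -0.93 in Gzmk+ CD8 cells and 0.65 in NK cells, and C1qb, a macrophage complement gene, at -1.20 in Gzmk+ CD8 cells, 1.28 in Havcr2+ CD8 cells and 0.61 in cycling CD8 cells. H2-Aa and C1qb mark other cell types in these gates, and their part in the values was not tested.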

How the results depend on the processing

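The share of Gzmk+ CD8 cells among CD8 T cells had a log2 ratio of KO over WT between 0.07 and 0.15 in the 5 settings tried, against 0.12 as reported. The counts of genes higher and lower in KO, 249 and 308, were 164 and 149 with the cells thinned to 2000 UMIs and 128 and 107 with the selection made on thinned counts, where cells and UMIs are fewer by construction; of these, 53 and 55, and 25 and 18, were among the genes called without thinning. Genes lower in KO were 200 with at least 50 UMIs per gene and 189 without the 42 cells holding MHC class II RNA. With the selection on thinned counts, genes higher and lower were 83 and 137 against Havcr2+ cells, 341 and 121 against naive-like cells and 210 and 518 against cycling cells. Among 188 named genes, median-ratio scaling, the 5% mitochondrial limit, leaving ribosomal protein and mitochondrial genes out of the total, Gzmk of at least 2 UMIs and the mean of per-cell CPM turned no call round. Apart from the reversals given next, ratios left their counting interval for 53 of these genes with Gzmk of at least 2 UMIs, 21 with the mean of per-cell CPM, 89 with the selection on thinned counts and 48 with thinned cells. With Gzmk of at least 2 UMIs, 122 of the 249 higher and 135 of the 308 lower genes were also called. The selection on thinned counts turned Hspb1 and Cd209a to 0.97, Ctsl, Ly86 and Mef2c to 0.39, Gzmc and Arg1 to 1.97, Ccr9 to 2.19, Nr4a3 to -0.20, Mcm2 to -0.10, Mcm3 to -0.055, Igkc to -0.59 and Trdc to -0.030. Thinned cells turned Ccr9 to 0.30, Mcm3 to -0.069 and Fscn1 to -0.70. Without the highest doublet scores Ifitm1 turned to -0.47, Il1b to -0.50, Hmgcs1 to 0.056, H2-Aa to 0.034 and Cd74 to 0.15. Without the limit on Havcr2 C1qb turned to 0.059. 2 alternatives were chosen after seeing the data: without the MHC class II cells Ifitm1 turned to -0.86, Igkc to -0.40 and Fscn1 to -0.77, and without the cell with most UMIs of a gene Igkc turned to -0.33. The cause of these reversals was not tested. Bcl2 ranged from 0.89 to 1.19, Pdcd1 from 0.88 to 1.30 and Serpina3g from 0.78 to 1.18 over all settings, and the interferon gamma list had between 7 and 13 genes higher and 0 lower among 19 to 23 measured. No paired analysis was possible because each genotype has 1 library, and for the same reason no library could be left out. Animal, handling, sorting and sequencing cannot be told apart from the genotype, and genes near 20 UMIs have intervals several-fold wide.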

Other observations

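Tox followed the Tcf7 split. In cells without a Tcf7 UMI it was at 116 CPM in KO and 54.0 CPM in WT (log2 ratio 1.11), and in cells with one at 48.3 CPM in KO and 81.04 CPM in WT (-0.75). Lag3 was at 66.1 CPM in KO and 41.8 CPM in WT without Tcf7 (0.66), and at 18.2 CPM in KO and 30.1 CPM in WT with it (-0.73), where it did not pass the rule. Ifng was higher in KO in cells with a Pdcd1 UMI, at 190 CPM against 104 CPM in WT (0.88), and at 126 CPM in KO and 120 CPM in WT without one (0.07). The cells with a Tcf7 UMI were 214 in KO and 123 in WT, and those with a Pdcd1 UMI 147 and 53. Over all Gzmk+ CD8 cells Tox had 324 UMIs in KO and 141 in WT, so each class rests on fewer. No intervals are given here for the class ratios. These classes were compared after their values had been seen, 1 library stands behind each genotype, and the differences between classes were not tested.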
